A study of Mus musculus with 12 samples.

Results

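Genes of the angiopoietin, Tie, endoglin and thrombospondin systems, which act on blood vessels, were followed in lung tumours of mice knocked out (KO) for Dnmt3a and mice wild type (WT) for it. Dnmt3a encodes an enzyme that puts methyl groups on previously unmethylated DNA. The 10 genes were Angpt1, Angpt2, Angptl2, Angptl4, Tek, Tie1, Eng, Acvrl1, Thbs1 and Thbs2, and every probe whose gene name in the array files was one of these was used. They were 10 of 27962 gene names and had 16 of the 41174 probes. All 16 probes passed the filter on dim probes, which asked for a signal well above background in KO or in WT RNA on at least 6 of 12 arrays.

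KO tumours came from mice homozygous for the conditional Dnmt3a knockout, and WT tumours from mice with the wild-type locus. Both kinds of mice carried the K-ras LSL-G12D allele on a C57/129 background and were given adenoviral Cre recombinase through the trachea or nose at 6 to 12 weeks of age. The labels place the recombined alleles in lung cells. They do not say which cells of a tumour sample, such as those of its vessels, carried them. KO RNA and WT RNA were hybridised together in opposite dyes on each of 12 arrays, 6 with Cy5-labelled and 6 with Cy3-labelled KO RNA. The labels give 4 combinations of sex and age, called pairs A to D here, with ages in a unit that is not stated. Pair A (replicates 1 to 4, slide 1) had a KO age of 47.7 and a WT age of 42.6, and pair B (replicates 5 to 8, slide 2) a KO age of 27 and a WT age of 41.3. Pair C (replicates 9 and 10, slide 3) had a KO age of 27 and a WT age of 47.6, and pair D (replicates 11 and 12, slide 3) a KO age of 29.1 and a WT age of 37.3. All animals were labelled male except the WT animals of pair C. Separate animals for the arrays of a pair are not named in the labels, and pairs B and C may share a KO animal, so the p-values reflect spread between arrays that may be technical. KO animals were the younger ones in pairs B, C and D, so genotype and age are partly confounded.

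The share of probes well above background was 81.6% to 89.6% on the arrays of slides 1 and 2, and 58.4% to 71.9% on those of slide 3. No spot was saturated (0 on every array). The precision is limited by the number of arrays and by the 4 pairs they come from. The lung epithelial genes Sftpa1, Sftpb, Sftpc and Cldn18, which were 4 of 6 looked for by name, were well above background on 12 of 12 arrays in both KO and WT RNA. Dnmt3a fell at each of its 3 probes, with log2 KO over WT ratios of -0.55 ± 0.075 at A_52_P169048, -0.25 ± 0.049 at A_52_P30497 and -0.21 ± 0.045 at A_52_P76146 (SE, n = 12 arrays, limma adjusted p = 0.00264, 0.0158 and 0.0217). At the first of them 8 arrays had KO RNA well above background, and 12 had WT RNA so. From Agilent's processed signals the 3 probes stood at -1.30, -0.43 and -0.26 (limma adjusted p = 0.000901, 0.0153 and 0.0614). Which exons the conditional allele loses is not stated in the labels, so whether these probes lie in them is not known. The calls at A_52_P30497 and A_52_P76146 ended in 9 and 14 of the alternatives tried (the second also without replicate 12, -0.20, adjusted p = 0.0510).

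Tek (also called Tie2) and Tie1 are receptor tyrosine kinases of endothelial cells, the cells that line blood vessels. Angpt1 activates Tek and quiets vessels, Angpt2 acts on the same receptor as an antagonist or a weak agonist depending on context, and Tie1 has no classical ligand of its own and modulates Tek. The angiopoietin-like proteins resemble angiopoietins but do not bind Tek. Endoglin (Eng) and ALK1 (Acvrl1) form a receptor complex for circulating bone morphogenetic proteins on endothelium, and loss of one copy of either gene in humans causes hereditary haemorrhagic telangiectasia, a disease of malformed vessels. Thrombospondins 1 and 2 are matrix glycoproteins that restrain vessel growth, in part through CD36 and CD47.

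The endothelial receptors of the set were lower in KO tumours. At the called probes Tek fell by 33.8%, Tie1 fell by 32.5%, Eng fell by 35.2% and Acvrl1 fell by 19.2%. In bulk samples like these, fewer endothelial cells and less RNA of a gene per cell cannot be told apart. Of the 16 probes, 6 fell and 0 rose at an adjusted p under 0.05 (limma, Benjamini-Hochberg over all 35531 kept probes). Over all probes 5.72% were called, 2.88% as lower in KO and 2.84% as higher in KO (1025 and 1008 probes). With the local backgrounds as deposited, 585 probes were called lower and 940 higher, with 4 member probes lower. The 6 called probes belonged to 6 genes, these receptors and Angpt1 and Angptl2, whose probes were dim. At each gene's brightest probe 9 of the 10 genes had a ratio below 0, with a median log2 ratio of -0.38, against -0.0042 over all genes. Tek and Tie1 had a probe below 0 on all 12 arrays, as had 1.03% of the 34463 probes with a value on every array. With 1 replicate left out in turn, 5 or 6 member probes were called. With each pair's mean as 1 value 0 were called (57 of all probes), within a single slide 0 (0 or 1 of all probes), and with median centring 3 (486 of all probes). At an unadjusted p under 0.05 in limma, the pair means and the 3 slides gave 7 or 8 of the 16 member probes. Of all probes, 5356 of 34463 passed so as pair means. Within slides 1, 2 and 3 these were 5286 of 35529, 5241 of 35531 and 5667 of 35241. The calls over all probes, 2033 here, were fewer by over 1.5 times without replicate 2 (1347), replicate 3 (1087), replicate 7 (1262) or replicate 12 (1053).

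**Figure D1:**
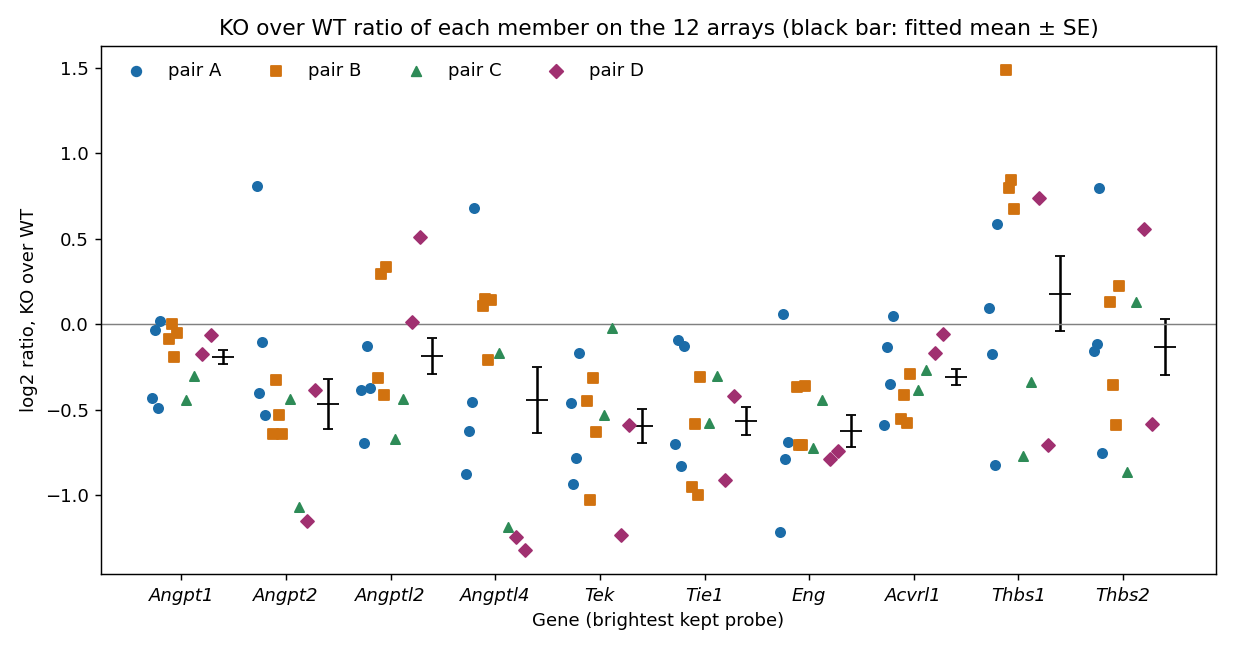
Log2 KO over WT ratio (vertical axis) of each gene's brightest probe on each of the 12 arrays, coloured by pair, with the fitted mean and its SE in black (n = 12 arrays). Tek and Tie1 lie below 0 on every array, Eng and Acvrl1 on 11 of 12, while Thbs1 is above 0 on all arrays of pair B and below 0 on both arrays of pair C.

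Tek, the angiopoietin receptor, was measured at chr4:94266776-94266835 (mm7, probe A_51_P130374). Its log2 normalised intensity was lowest at 7.88, 8.24 in the median and highest at 8.71 in KO RNA, against 8.35, 8.90 and 9.47 in WT RNA. The ranges overlapped, but on each array the KO value was the lower one. The log2 ratio of single arrays ran between -1.23 on replicate 11 and -0.02 on replicate 10. The fitted ratio was -0.60 ± 0.098 (SE, n = 12, 95% interval -0.81 to -0.38, limma adjusted p = 0.00665). Averaged over the arrays of a pair it was -0.59 in A, -0.61 in B, -0.28 in C and -0.91 in D. With a dye term, pairs C and D stood at -0.37 and -0.82. The mean ratio was -0.43 over arrays with KO RNA in Cy5 and -0.76 over those with KO RNA in Cy3. The call ended without pair B (-0.59, adjusted p = 0.0526).

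A second Tek probe, A_52_P234087 at chr4:94134402-94134461, did not follow the first. It was named after a cDNA clone rather than the reference transcript, and its start lay 132374 bases from that of the other probe. KO RNA gave 7.48, 7.69 and 7.91 (lowest, median, highest) and WT RNA 7.61, 7.72 and 7.86. KO values were lower on 7 arrays and higher on 5, with a fitted ratio of -0.057 ± 0.030 (limma adjusted p = 0.309). On each of the 12 arrays the first probe's ratio was below that of the second, with a mean log2 difference, first minus second, of -0.54 (SD 0.31, exact 2-sided sign-flip permutation test over 12 arrays, p = 0.000488, the smallest it can give). After adjustment over the 6 probe pairs compared within genes, p was 0.00293, with arrays taken as independent. Gene models of build mm7 were not used here, so which exon, intron or UTR either probe lies in is not given.

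Tie1, the partner receptor of Tek, was measured by A_51_P177171 at chr4:117847966-117848025 (mm7). KO RNA gave log2 intensities of 7.88, 8.15 and 8.58 (lowest, median, highest), against 8.51, 8.73 and 9.15 in WT RNA. Only the highest KO arrays reached the lowest WT arrays. Ratios of single arrays lay between -0.998 on replicate 7 and -0.09 on replicate 2, and the fitted ratio was -0.57 ± 0.084 (limma adjusted p = 0.00389, lower on 12 of 12 arrays). By pair the mean was -0.44 in A, -0.71 in B, -0.44 in C and -0.67 in D. With a dye term, as in the test between pairs below, the pairs stood at -0.44, -0.71, -0.14 and -0.96. The mean ratio was -0.73 over the 6 arrays with KO RNA in Cy5 and -0.41 over the 6 with KO RNA in Cy3, a split by dye that the model fits as a term of its own.

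Eng, the co-receptor of ALK1, was measured by A_51_P268563 at chr2:32689101-32689160 (mm7). KO RNA gave 8.88, 9.09 and 9.40 (lowest, median, highest), against 9.34, 9.74 and 10.2 in WT RNA. The KO value was lower on 11 of 12 arrays, and replicate 2 stood at 0.06. The lowest ratio, -1.21, was that of replicate 1. The fitted ratio was -0.63 ± 0.096 (limma adjusted p = 0.00466), and by pair the mean was -0.66 in A, -0.54 in B, -0.58 in C and -0.77 in D. With a dye term, pairs C and D stood at -0.41 and -0.94. The mean ratio was -0.71 with KO RNA in Cy5 and -0.54 with KO RNA in Cy3.

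Acvrl1, which encodes the kinase receptor ALK1, was measured by A_52_P279329 between positions 101122328 and 101122620 of chromosome 15 (mm7), an interval longer than the probe. KO RNA gave 7.42, 7.77 and 8.25, against 7.66, 7.92 and 8.81 in WT RNA (lowest, median, highest). Both RNAs were brightest on 3 arrays of pair B. The ratio was below 0 on 11 of 12 arrays, from -0.59 on replicate 1 to 0.05 on replicate 4, and the fitted value was -0.31 ± 0.048 (limma adjusted p = 0.00502). It was -0.45 over arrays with KO RNA in Cy5 and -0.17 over those with KO RNA in Cy3. With each array centred on its median in place of loess, the call ended (-0.28, adjusted p = 0.0560).

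**Figure D2:**
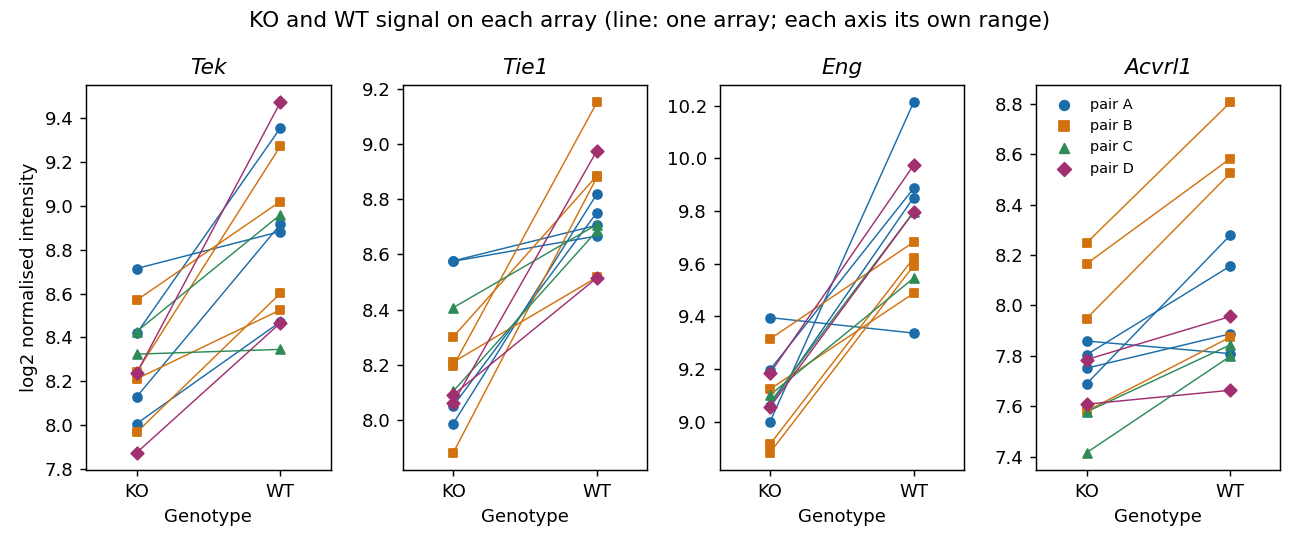
Log2 normalised intensity of KO RNA (left) and WT RNA (right) for Tek, Tie1, Eng and Acvrl1, each line being 1 array, coloured by pair. Every line climbs towards WT for Tek and Tie1, and 11 of 12 do so for Eng and Acvrl1.

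Promoters are shown for Tek, Tie1 and Eng, the 3 members whose called probes had the lowest fitted ratios. The windows run from 250 bases before the gene's start to 50 after it (RefSeq, build GRCm38.p6), which covers 300 bases, and 5 of the 10 genes had an entry. Capitals mark matches to CAGGAA, a core bound by ETS factors, and to AGATAA, bound by GATA factors. A match on the opposite strand to CAGGAA reads TTCCTG. The windows are chr4:94739039-94739338 on the plus strand for Tek, chr4:118489800-118490099 on the minus strand for Tie1 and chr2:32646345-32646644 on the plus strand for Eng.
Tek: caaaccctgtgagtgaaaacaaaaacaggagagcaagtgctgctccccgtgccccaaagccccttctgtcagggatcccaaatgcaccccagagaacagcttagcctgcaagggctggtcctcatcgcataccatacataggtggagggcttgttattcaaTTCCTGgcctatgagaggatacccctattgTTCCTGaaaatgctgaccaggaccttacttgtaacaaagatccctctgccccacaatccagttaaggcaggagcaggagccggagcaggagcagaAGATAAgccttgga
Tie1: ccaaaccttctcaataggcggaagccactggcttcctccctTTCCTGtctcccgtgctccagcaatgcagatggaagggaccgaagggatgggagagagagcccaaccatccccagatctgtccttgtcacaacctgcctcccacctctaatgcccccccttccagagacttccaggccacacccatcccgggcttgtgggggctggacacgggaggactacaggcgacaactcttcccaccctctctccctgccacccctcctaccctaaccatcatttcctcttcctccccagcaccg
Eng: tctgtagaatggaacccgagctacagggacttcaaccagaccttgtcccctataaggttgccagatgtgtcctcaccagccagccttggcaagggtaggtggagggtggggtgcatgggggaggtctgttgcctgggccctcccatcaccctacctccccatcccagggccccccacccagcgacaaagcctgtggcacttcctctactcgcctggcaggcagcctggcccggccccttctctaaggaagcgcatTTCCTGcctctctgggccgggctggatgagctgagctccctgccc

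CAGGAA stood on the opposite strand in all 3 windows, at -89 and -59 bases from the start of Tek, -209 from that of Tie1 and 5 from that of Eng. AGATAA stood in the Tek window alone of these, 36 bases after the start. Searched on both strands, CAGGAA was present in 30.6% of 32851 promoter windows and AGATAA in 11.2%. CCGGAA (14.9% of windows) and TGATAA (9.05%) had 0 matches in any of the 5 windows. No matches overlapped in the windows shown, and a window may hold more than 1 of these motifs. Promoters of Angptl2 and Thbs2 held 1 and 2 matches to CAGGAA. The Tek, Tie1 and Eng windows held 3, 7 and 6 CpG dinucleotides, the sites that DNA methyltransferases act on, against a median of 7 over all windows. No methylation was measured in these data.

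The ligands of Tek were less clear. Angpt1, the activating ligand, had 2 dim probes on chromosome 15. At A_52_P160328 (chr15:42434991-42435050, mm7) the signal passed background on 7 arrays in KO RNA and 9 in WT RNA, with log2 intensities of 6.15, 6.55 and 6.79 in KO RNA and 6.59, 6.66 and 7.09 in WT RNA (lowest, median, highest). The ratio was below 0 on 10 of 12 arrays and fell by 0.19 ± 0.041 on the log2 scale (limma adjusted p = 0.0236). It was -0.32 with KO RNA in Cy5 and -0.05 with KO RNA in Cy3. At A_52_P574140 (chr15:42504318-42504377) the ratio was -0.091 ± 0.043 (adjusted p = 0.247), with KO RNA and WT RNA each well above background on 8 arrays. The first call ended in 15 of 38 alternatives, among them those without pair A, C or D. From Agilent's processed signals the probes gave -0.65 (adjusted p = 0.0646) and -0.53 (adjusted p = 0.0385).

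Angpt2, the context-dependent ligand that endothelial cells store and release, was bright enough on all arrays (A_51_P201982, chr8:18668127-18668186, mm7). KO RNA gave 8.48, 9.30 and 10.2, against 8.92, 9.74 and 10.3 in WT RNA (lowest, median, highest). KO values were lower on 11 of 12 arrays, between -1.15 and -0.11, and replicate 1 alone was higher, at 0.81. The fitted ratio was -0.47 ± 0.14 (95% interval -0.78 to -0.15) and did not pass the test (limma adjusted p = 0.0827). Without replicate 1 it was -0.57 and passed (adjusted p = 0.0141), and without pair A it was -0.65 (adjusted p = 0.0378). It also passed with slide as a fixed term (-0.45, adjusted p = 0.0322) and with array weights (-0.51, adjusted p = 0.0297), and within slides 1, 2 and 3 it was -0.059, -0.54 and -0.76. Beside replicate 1, the other arrays of pair A stood at -0.40, -0.11 and -0.53.

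Angptl2, a secreted angiopoietin-like protein linked to inflammation, had 3 probes on chromosome 2 that start within 16591 bases of each other. The brightest, A_52_P93256 (chr2:33251044-33251103, mm7), had KO intensities of 6.45, 6.98 and 7.46 and WT intensities of 6.65, 7.04 and 7.70. Its ratio was -0.19 ± 0.10 (limma adjusted p = 0.337), below 0 on 8 arrays, and was -0.12 without replicate 2. It had means of -0.40, -0.03, -0.55 and 0.26 in pairs A to D. With a dye term, pairs C and D stood at -0.45 and 0.16. The mean ratio was -0.39 with KO RNA in Cy5 and 0.014 with KO RNA in Cy3. A_52_P853177 (chr2:33253893-33253950) fell by 0.17 ± 0.045 on the log2 scale with an adjusted p of 0.0494 (limma), next to the threshold of 0.05. Its signal was well above background on 6 arrays in KO RNA and 7 in WT RNA. That call ended in 25 of 36 alternatives. Leaving out any of replicates 1, 2, 3, 4, 7, 9, 10, 11 and 12 ended it, with values between -0.19 and -0.15 and adjusted p up to 0.0962. A_52_P533930 (chr2:33237302-33237361) stood at -0.013 ± 0.035 (adjusted p = 0.883).

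Angptl4, an inhibitor of lipoprotein lipase that fasting, PPAR receptors and hypoxia switch on, was bright on all arrays (A_51_P338443, chr17:31849774-31849833, mm7). KO RNA gave 11.4, 11.7 and 12.9, against 11.3, 12.2 and 12.97 in WT RNA (lowest, median, highest). The fitted ratio was -0.44 ± 0.19 and did not pass the test (limma adjusted p = 0.207, lower on 8 of 12 arrays). Both arrays of pair D were low, at -1.24 and -1.32, and replicate 10 of pair C stood at -1.19 beside -0.17 on replicate 9. Pair B lay near 0, between -0.21 and 0.15. In pair A replicate 4 was higher at 0.68, while the other 3 arrays lay between -0.88 and -0.45. With pairs A and B alone, a choice made after seeing the data, the ratio was -0.14 (adjusted p = 0.690). Without pair D it was -0.20, and within slides 1, 2 and 3 it was -0.32, 0.047 and -0.98.

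Thbs1, a thrombospondin, had the widest spread of ratios in the set. Its brightest probe, A_52_P363951 (chr2:117866887-117866946, mm7), gave 10.3, 11.1 and 12.2 in KO RNA and 10.15, 11.1 and 11.8 in WT RNA (lowest, median, highest). The ratio was above 0 on 7 arrays and below on 5, with a fitted value of 0.18 ± 0.22 (limma adjusted p = 0.714, 95% interval -0.30 to 0.66). It was 0.057 without replicate 5, 0.27 without replicate 9 and 0.29 without replicate 12, and turned to -0.18 without pair B. Within slides 1, 2 and 3 it was -0.080, 0.95 and -0.27, so its direction is not settled. All 4 arrays of pair B were higher in KO, at 1.49, 0.79, 0.85 and 0.67. Both arrays of pair C were lower, at -0.77 and -0.34, and pairs A and D held values on either side of 0. The 3 Thbs1 probes start within 5063 bases of each other and had the same sign on 11 of 12 arrays, replicate 1 being the exception. The other probes, A_52_P337086 (chr2:117863442-117863501) and A_52_P337092 (chr2:117861824-117862004), stood at 0.046 ± 0.095 and 0.025 ± 0.089 (adjusted p = 0.842 and 0.912). The arrays that were high or low were thus nearly the same ones at each probe.

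Thbs2, the second thrombospondin, did not pass the test either (A_51_P461877, between positions 12950083 and 12951346 of chromosome 17, mm7). KO RNA gave 7.45, 7.90 and 8.98, against 7.32, 8.22 and 8.76 in WT RNA (lowest, median, highest). The ratio was -0.14 ± 0.16 (limma adjusted p = 0.706), lower on 7 arrays, and ran from -0.86 on replicate 9 to 0.80 on replicate 3. Within pair A alone the values spanned -0.75 to 0.80. Leaving out 1 array gave values between -0.22 (without replicate 3 or 11) and -0.051 (without replicate 9), with -0.077, -0.084 and -0.086 without replicates 4, 7 and 12. With the local backgrounds as deposited the ratio was 0.029 (adjusted p = 0.920).

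**Figure D3:**
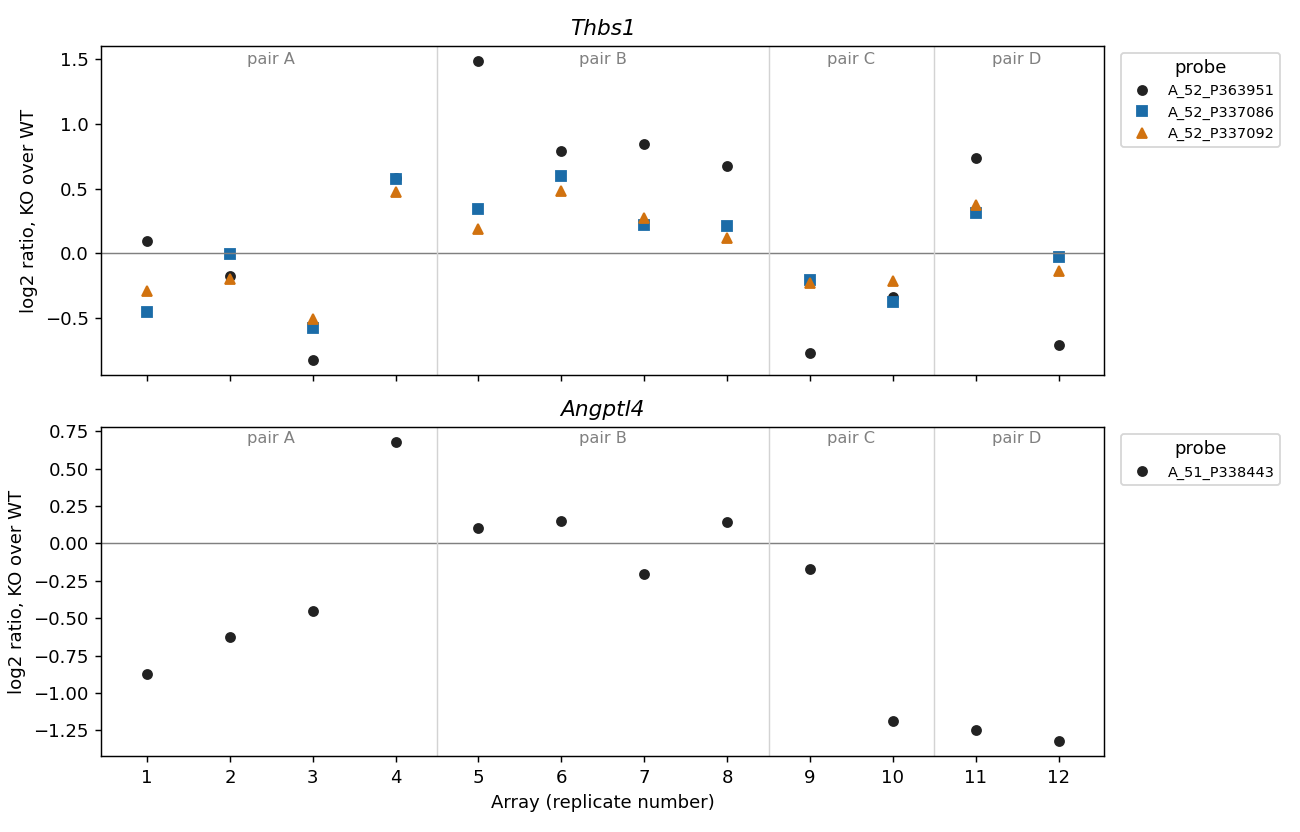
Log2 KO over WT ratio of the 3 Thbs1 probes (top) and the Angptl4 probe (bottom) on each array, numbered by replicate and divided by pair. The Thbs1 probes move up and down together and are all above 0 in pair B, and Angptl4 is lowest on replicates 10, 11 and 12.

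Whether the KO over WT ratio differed between the 4 pairs was tested for each probe by an F test (limma, with a dye term and arrays of a pair taken as independent). Of the 16 member probes 0 passed at an adjusted p under 0.05, where 0.348% of all 34463 probes passed. At an unadjusted p under 0.05, 3 of the 16 passed, against 4327 of all 34463 probes. They were Tie1 (unadjusted p = 0.0117 by the limma F test, adjusted p = 0.257), Angptl4 (0.0257, adjusted p = 0.330) and the brightest Thbs1 probe (0.0451, adjusted p = 0.387). The authors' ratios also gave 0. On slide 3 pair and dye coincide, so pairs C and D cannot be told apart from the dye there.

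**Figure D4:**
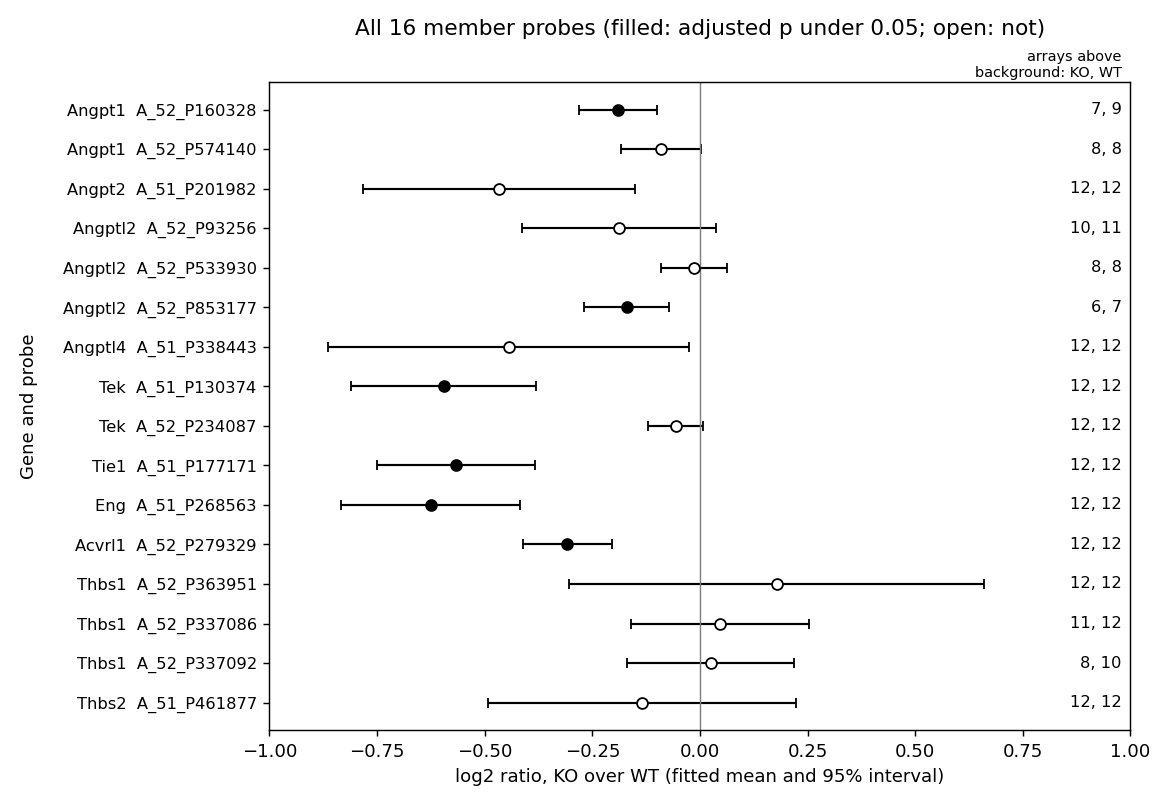
Fitted log2 KO over WT ratio with its 95% interval for all 16 probes, filled where the adjusted p was under 0.05, with the number of arrays on which KO and WT RNA were well above background at the right. The intervals of the 4 called receptor probes of Tek, Tie1, Eng and Acvrl1 lie wholly below 0, and both RNAs were well above background on 12 arrays there, whereas at the called Angpt1 and Angptl2 probes they were so on fewer. The interval of the second Tek probe crosses 0.

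Genes around the members were read at their brightest kept probe, where 3.08% of 25064 genes were called lower in KO and 2.82% higher. Of 17 further angiopoietin and Tie pathway genes, 2 fell and 0 rose, with a median of -0.14 beside -0.0042 over all genes. Ptprb, the endothelial phosphatase that dephosphorylates Tek, fell by 1.24 ± 0.13 on the log2 scale (limma adjusted p = 0.000732, lower on 12 of 12 arrays), and the integrin subunit Itga5 fell by 0.22 ± 0.043 (adjusted p = 0.0150). Svep1, a matrix protein that binds Tie1, stood at -0.42 ± 0.12 (adjusted p = 0.0589), and Grb14, an adaptor that binds Tek, at 0.50 ± 0.14 (adjusted p = 0.0565).

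In the endoglin and ALK1 pathway, calls went both ways. Of 24 measured genes (Gdf2 was not measured), 1 fell and 2 rose, with a median of -0.014. Over all genes 3.08% were called lower in KO and 2.82% higher. At an unadjusted p under 0.05 in limma 8 of the 24 passed, against 7454 of all 35531 kept probes. Tmem100, an endothelial target of ALK1 signalling, fell by 0.89 ± 0.24 on the log2 scale (limma adjusted p = 0.0491). The signal carrier Smad3 rose by 0.27 ± 0.061 (adjusted p = 0.0292) and the transcriptional inhibitor Id2 by 0.99 ± 0.26 (adjusted p = 0.0496). Hey1, a target of Notch and ALK1, stood at -0.67 ± 0.18 (adjusted p = 0.0504). Of 14 thrombospondin relatives and receptors, 6 had an unadjusted p under 0.05 in limma, against 7454 of all 35531 kept probes. After adjustment 0 passed in either direction, with a median of -0.19. The nearest were Lrp1, a receptor that clears thrombospondins (-0.50 ± 0.14, adjusted p = 0.0581), the receptor Cd47 (-0.19 ± 0.068, adjusted p = 0.131), the protease Adamts1 (-0.57 ± 0.22, adjusted p = 0.148) and Comp, also called thrombospondin 5 (-0.16 ± 0.061, adjusted p = 0.162).

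Markers of the cells that carry these receptors moved with them. Of 16 endothelial markers 14 fell and 0 rose, with a median log2 ratio of -0.75 that was below 0 on 12 of 12 arrays (from -1.37 to -0.55). Smallest in p were the junction proteins Cdh5 (-0.83 ± 0.074) and Pecam1 (-0.65 ± 0.059), the ETS factor Erg (-0.998 ± 0.097) and Ramp2, which binds the adrenomedullin receptor (-0.95 ± 0.096), with limma adjusted p between 0.000505 and 0.000732. The mean log2 level of the list was 10.3 to 10.8 in KO RNA and 11.0 to 11.7 in WT RNA, and each marker was well above background on at least 11 arrays in KO RNA and 12 in WT RNA. On the same array, the Tek ratio lay a mean of 0.17 (SD 0.24, n = 12) above the endothelial median, that of Eng 0.14 (SD 0.34), that of Tie1 0.20 (SD 0.30) and that of Acvrl1 0.45 (SD 0.33). Acvrl1 was above the endothelial median on 11 of 12 arrays, Tek on 10, and Tie1 and Eng on 9. These are the brightest probes, so the second Tek probe, at -0.057, is left out. Their mean log2 signal was 8.56 for Tek, 8.49 for Tie1, 9.42 for Eng and 7.94 for Acvrl1. From Agilent's processed signals their ratios were, in that order, -0.73, -0.71, -0.69 and -0.44. The part of signal level and background correction in the distance to the endothelial median was not tested.

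Pericytes wrap small vessels and are a source of Angpt1. Their markers, listed with those of smooth muscle, had ratios below 0 in 9 of 10 cases. Of 10 pericyte and smooth muscle markers 5 fell and 0 rose (median -0.44, below 0 on 11 of 12 arrays), with mean log2 levels of 9.15 to 9.71 in KO RNA and 9.65 to 10.54 in WT RNA. Rgs5 (-1.65 ± 0.31), Pdgfrb (-0.88 ± 0.10), Notch3 (-0.82 ± 0.13) and Des (-0.43 ± 0.099) had the smallest p (limma adjusted p between 0.00147 and 0.0300). The smooth muscle marker Acta2 alone stood above 0 (0.16 ± 0.12, adjusted p = 0.499). Cnn1, at -0.030 ± 0.29 (adjusted p = 0.971), was higher in KO on 8 of 12 arrays. The part of pericytes and smooth muscle cells in the ratios of Angpt1 and Angpt2 was not tested.

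For the thrombospondins, which fibroblasts, macrophages and platelets make, the marker lists did not move as a block. Of 10 fibroblast markers Postn fell (-0.81 ± 0.18, limma adjusted p = 0.0244) and Lum rose (1.13 ± 0.30, adjusted p = 0.0494), with a median of -0.25, and Pdgfra (-0.67 ± 0.19, adjusted p = 0.0607) and Col1a2 (-0.49 ± 0.21, adjusted p = 0.215) followed. The fibroblast median was 0.24 in pair B, where Thbs1 was higher on every array, and -0.32, -0.27 and -0.91 in pairs A, C and D. Single arrays of pair B (replicates 5 to 8) gave 0.27, 0.21, -0.38 and 0.88. Replicates 1, 4 and 11, where Thbs1 was also higher at its brightest probe, gave -0.71, -0.48 and -0.35. Replicates 2, 3, 9, 10 and 12, where Thbs1 was lower, gave -0.065, -0.0016, -0.38, -0.15 and -1.47. Of 9 macrophage markers 0 passed (median -0.20), the nearest being Cd68 (-0.28 ± 0.13, adjusted p = 0.247). At an unadjusted p under 0.05 in limma 0 of them passed too, against 7454 of all 35531 kept probes. Of 9 platelet markers the chemokine Pf4 rose (1.74 ± 0.41, adjusted p = 0.0330) and the glycoprotein Gp9 fell (-0.33 ± 0.088, adjusted p = 0.0471), with a median of -0.070. The mean log2 level of the fibroblast list was 10.3 to 11.6 in KO RNA and 9.97 to 11.9 in WT RNA. That of the macrophage list was 11.2 to 12.54 in KO RNA and 11.6 to 12.3 in WT RNA, and that of the platelet list 7.74 to 8.11 in KO RNA and 7.65 to 8.14 in WT RNA. Their part in the thrombospondin values was not tested.

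Beside Angptl4, 9 PPAR target genes gave 0 calls, with a median of -0.13. At an unadjusted p under 0.05 in limma 2 passed, against 7454 of all 35531 kept probes. Fabp4 stood at -0.79 ± 0.31 (limma adjusted p = 0.160), Cpt1a at -0.23 ± 0.071 (adjusted p = 0.0829) and, on the other side of 0, Acadvl at 0.22 ± 0.11 (adjusted p = 0.271). Of 12 hypoxia genes 2 fell, the vasodilator peptide Adm (-0.45 ± 0.098, adjusted p = 0.0243) and Ankrd37 (-0.69 ± 0.18, adjusted p = 0.0440), and 0 rose. Ldha stood at -0.54 ± 0.18 (adjusted p = 0.0989) and Pdk1 at 0.32 ± 0.12 (adjusted p = 0.142), with a list median of -0.16.

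**Figure D5:**
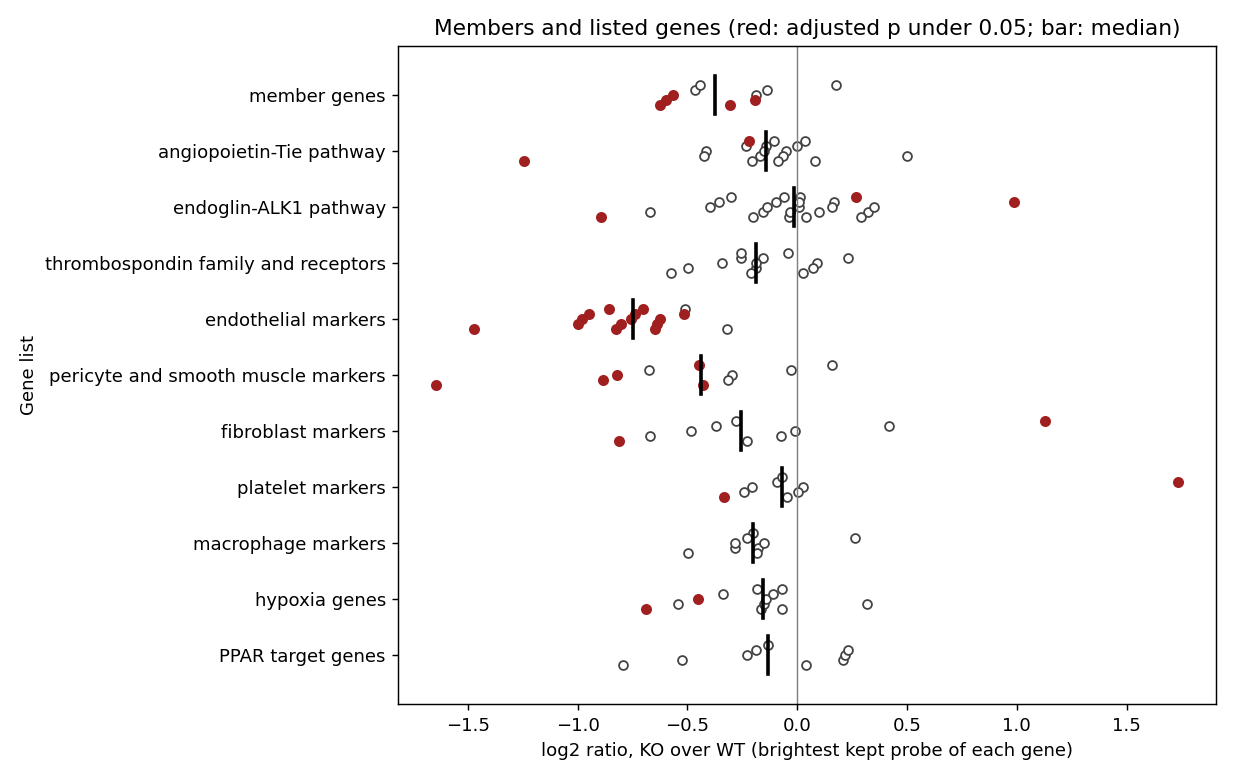
Log2 KO over WT ratio of the 10 member genes (top) and of the genes in each list at their brightest kept probe, red where the adjusted p was under 0.05, with the median as a bar. The endothelial markers lie furthest to the left, at a median of -0.75, and the member genes have a median of -0.38.

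Likeness to the members was measured as the mean absolute difference of the 12 ratios, over 25064 genes. Nearest to Tek were Tal1, a transcription factor of blood and vessel cells that is also among the endothelial markers (0.16 on the log2 scale), the peptide-loading protein Tapbp (0.16) and Gucy1b1, a subunit of the nitric oxide receptor (0.19). Nearest to Tie1 were the membrane protein Tmem204 (0.17), Ccm2l (0.18) and the guidance factor Ntn1 (0.19). Nearest to Eng were the probe named NAP123925-1 (0.18), Csrnp1 (0.18) and Plekhg1 (0.19), and nearest to Acvrl1 were Ankrd9 (0.11), Castor1 (0.13) and Cyth3 (0.13). For the dim Angpt1 probe they were Tssc4 (0.073), 1700016A09Rik (0.095) and AK040647 (0.098), and for the brightest Angptl2 probe Slc25a33 (0.17), Plat (0.19) and Scmh1 (0.19). All of these had a ratio below 0, and the measure favours genes with a small spread.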

How the data were processed

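Total RNA of flash-frozen tumours was copied and dye-labelled, per the labels' protocols. Agilent Feature Extraction 10.1.1.1 quantified the scans of array design 014868, per the file headers. Unnormalized values were used, namely the deposited mean intensity per spot with the median intensity around it as background. Deposited 0 or 1 flags mark which spots were saturated, outlying or well above background. Agilent's processed intensities, used as an alternative, were background-subtracted and dye-normalized, as the file headers record. The authors' log2 ratios stand in the series matrix, where limma was the tool per the submitters' processing notes, and no further steps are stated in the labels. Against the ratios computed here each column had a slope of 1.00 to 1.06, a correlation across probes of 0.991 to 0.997 and a median between -0.011 and 0.0077, so its direction was KO over WT with swapped arrays turned, and its centring is unknown. Probe names and positions are those of the files on build mm7. A RefSeq accession found in a table of GRCm38.p6 gave 22951 of 41174 probes their name, and the others kept the file's name.

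In R 4.3.3, using limma 3.58.1 (with statmod 1.5.0), intensities were corrected with normexp (offset 50) and normalized by loess within arrays, with control and outlying spots at weight 0. Outlying local backgrounds took the median of the array and dye. Spots were averaged per probe, and probes well above background in KO or WT RNA on at least 6 arrays were kept (35531). Ratios were turned to KO over WT and fitted with a dye term and the pair as a random block, with Benjamini-Hochberg adjustment at 0.05. The block's correlation, 0.079, was taken from the turned ratios, where arrays of 1 pair correlated at a mean of 0.30 across probes and those of different pairs at 0.20. Replicate numbers do not pair separate groups, since KO and WT RNA of 1 number share an array. The log2 normalised intensity of an RNA is its dye's channel after loess, and no probe's level was set against another's. Promoter windows were counted over RefSeq entries of 300 bases.

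Members, lists and tests were chosen with earlier results of these data known. The rule for named genes took every member and probe, Dnmt3a, up to 4 genes of smallest p per list with any that changed opposite to the rest, and for each member with a called probe the 3 genes of most similar ratios. The alternatives changed how background was corrected, ratios were normalized and probes were filtered or combined, the dye, block and slide terms, the threshold, the array weights and the variance model, used the authors' ratios, or left out arrays or pairs. Restricting to pairs A and B and joining pairs B and C as 1 animal were chosen after seeing the data. The fit was also run on simulated data, and no result of that run is used here.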

Additional observations from a re-analysis of the deposited data

How the results depend on the processing

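The number of member probes called, 6 of 16, was 3 with median centring in place of loess (of 486 calls over all probes) and 0 with the replicate block as pair means, where each pair gave 1 value (of 57). It was also 0 within slide 1, slide 2 and slide 3, where 0, 1 and 0 of all probes were called. At an unadjusted p under 0.05 in limma, these 4 fits gave 7, 7, 8 and 8 member probes of 16. Over all probes they gave 5356 of 34463, 5286 of 35529, 5241 of 35531 and 5667 of 35241. With 1 replicate left out it was 5 to 6, and under the other alternatives 4 to 7, all of them lower in KO. Over all probes, the count was 3269 with no replicate block, 3228 with the block's correlation taken from red over green ratios, 3935 with slide as a fixed term, 578, 1192, 1185 and 1268 without pairs A, B, C and D, 1256 with pairs A and B alone, and 448 and 3742 at adjusted p under 0.01 and under 0.1, against 2033.

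As pair means, Tek stood at -0.59 (limma adjusted p = 0.118), Tie1 at -0.56 (0.0768), Eng at -0.64 (0.0523) and Acvrl1 at -0.29 (0.175). Within slides 1, 2 and 3 Tek stood at -0.59, -0.61 and -0.59, Tie1 at -0.44, -0.71 and -0.55, Eng at -0.66, -0.54 and -0.67, and Acvrl1 at -0.26, -0.46 and -0.22, none with a call. These fits use fewer values per probe, and the part of that in the loss of calls was not tested. Over all alternatives Tek lay between -0.73 and -0.33, Tie1 between -0.71 and -0.44, Eng between -0.69 and -0.50 and Acvrl1 between -0.46 and -0.22, and the called probes stayed below 0 throughout. The cause of the change with median centring was not tested. Signal over background limits the dim Angpt1 and Angptl2 probes. The number of members differing between pairs was 0 with the authors' ratios too.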
